A study of Mus musculus with 8 samples.

Results

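The mRNA response of mouse Th1 cells to a hairpin against Pcbp1 was set against their response to an iron chelator, gene by gene. The value compared is the knockdown effect (log2 of Pcbp1 hairpin over scrambled hairpin) minus the CPX effect (log2 of CPX over DMSO), called the difference below. A higher difference means that a transcript stood relatively higher after the knockdown than with the chelator. All 8 of the 8 libraries of the study enter it, and 10430 of 14805 genes with an assigned name reached 1 CPM in at least 2 libraries of each experiment and were tested. Levels are in CPM, counts or rescaled units relative to the total of the library, and apart from the marker levels they are also scaled by median ratios within each experiment. Effects are on the scale of log2(CPM + 0.5). The cells were CD4 T cells of C57BL/6 mice, activated with antibodies to CD3 and CD28 and polarized to Th1 by 2 ng/ml of IL-12 plus 5 µg/ml of anti-IL-4. In the knockdown experiment they were transduced with a short hairpin RNA against Pcbp1 (2 libraries) or with a scrambled one (2 libraries), and total RNA depleted of ribosomal RNA was sequenced. In the chelation experiment they received CPX (ciclopirox olamine, a membrane-permeant iron chelator; 2 libraries) or its solvent DMSO (2 libraries), and polyA RNA was sequenced. The sources used here give neither the dose of CPX and its duration nor how many hairpin sequences were used. Nothing in the labels ties the replicates to separate cultures or animals, and the p-values therefore rest on the spread between these samples alone, which may be technical.

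PCBP1 is a poly(C)-binding protein. It binds cytosine-rich stretches of RNA and acts in splicing, mRNA stability and translation, and it is also an iron chaperone that hands ferrous iron to ferritin and to iron-dependent enzymes. A chelator withdraws iron from the same pool, which feeds ferritin, heme and iron-sulfur cluster synthesis, ribonucleotide reductase and the dioxygenases that mark HIF for degradation. In activated T cells PCBP1 is known to stabilize mRNAs of inflammatory cytokines such as GM-CSF (Csf2). The comparison addresses which transcripts respond alike to loss of PCBP1 and to loss of available iron, and which do not.

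Depth was 14174293 to 15518303 reads in genes for the knockdown libraries and 19193784 to 19662145 units of a rescaled count for the chelation libraries. Replicates correlated across genes at 0.993 in both hairpin groups, 0.980 with DMSO and 0.954 with CPX (Pearson, log2 scale; a description of the libraries). More than 2-fold gaps between replicates occurred in 50 genes with the scrambled hairpin, 40 with the Pcbp1 hairpin, 429 with DMSO and 1477 with CPX. T cell markers were present in every library (Cd4 at 42.8 to 405 and Cd3e at 39 to 184 CPM), and Ifng at 1106 to 50383 CPM. Cd8a stood at 63.8 and 67.1 CPM in replicate 1 of the hairpin groups and at 6.49 and 6.92 in replicate 2. Cd8b1 (26.7 and 24.8 against 5.45 and 4.69) and Klrk1 (67.2 and 49.8 against 26.5 and 25) were likewise higher in replicate 1. Whether same-numbered hairpin libraries share a cell preparation was not tested, and the main fit takes no pairs. The summed macrophage markers (4 of 10 measured) stood at 2.12 to 3.99 CPM in the hairpin libraries, 2.8 to 4.86 with DMSO and 54.5 to 72.8 with CPX. Most of the CPX sum was Itgam (49.5 and 25.5) and Cd68 (14.1 and 15.2). The other 6 listed, Csf1r, Cd14, Lyz2, Lyz1, Fcgr1 and Mrc1, were not among the genes with an assigned name, which needed a value of 10 in a library. The summed dendritic cell markers (8 of 11) stood at 20.6 to 29, 12 to 17.9 and 51.6 to 70, neutrophil markers (2 of 10) at no more than 0.49 in the other groups and 6.81 to 7.66 with CPX, and the erythroid marker measured (1 of 9) at no more than 0.908, with 0 in the chelation experiment. The part of these markers in the results was not tested. Since the experiments differ in RNA selection, that cannot be told apart from the rest of what separates them in any difference, and levels are compared within an experiment only. In bulk RNA fewer cells of a type and less RNA per cell cannot be told apart either.

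Both perturbations lowered the targeted gene. Pcbp1 stood at 46.2 and 54.7 CPM with the scrambled hairpin and at 14.1 and 15.5 with the Pcbp1 hairpin. It stood at 479 and 470 with DMSO and at 275 and 208 with CPX. The groups did not overlap in either experiment, and Pcbp1 fell by 1.73 on the log2 scale after the knockdown and by 0.99 with CPX. The difference was -0.74 (SE 0.24, limma, adjusted p = 0.0369), a call lost under 12 of 20 alternatives, among them no median ratio scaling (-0.32, adjusted p = 0.229) and the omission of any hairpin or DMSO library (adjusted p = 0.0594 to 0.137). Pcbp2, its closest paralog, stood at 53.2 and 52.0 against 60.9 and 62.3 in the knockdown and at 485 and 440 against 786 and 816 in the chelation experiment. It rose with CPX by 0.79, its knockdown effect of 0.23 was not called, and the difference was -0.57 (SE 0.17, limma, adjusted p = 0.0276). That call was lost under 10 of 20 alternatives. These were the omission of any hairpin library (limma, adjusted p = 0.0908 to 0.108) or of DMSO replicate 2 (-0.46, 0.0875), no median ratio scaling (-0.15, 0.491), quantile normalization (-0.26, 0.222), no filter (-0.35, 0.15), no trend of the variance (0.0536) and each experiment fitted by itself (0.0758).

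Knockdown and chelation effects showed little relation across genes, and many genes differed between them by call. The difference was called for 5252 of the 10430 genes, 50.4% (limma, Benjamini-Hochberg adjusted p under 0.05), with 2738 higher (26.3%) and 2514 lower (24.1%). Of these, 4473 differed at least 2-fold and 1726 at least 4-fold. CPX effects were the wider ones, with an SD across genes of 1.33 against 0.652 on the log2 scale, and the CPX effect was the larger in 4018 of the called differences (76.5%) against 1234. Across genes the 2 effects had a Pearson correlation of -0.021 and a Spearman correlation of -0.018, a description over genes that share the libraries. The split into higher and lower calls rests on the scaling. With no median ratio scaling the median difference of all genes moved from 0.00 to 0.40 and 68.7% of the calls were higher, against 52.1%. Groups without overlap were common, in 80.7% of genes for the hairpins and 75.5% for DMSO and CPX. The scatter of both effects shows the genes away from the line of equal effects on all sides. Counts of called members in the gene lists below are to be read beside the 26.3% higher and 24.1% lower of all genes.

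**Figure D1:**
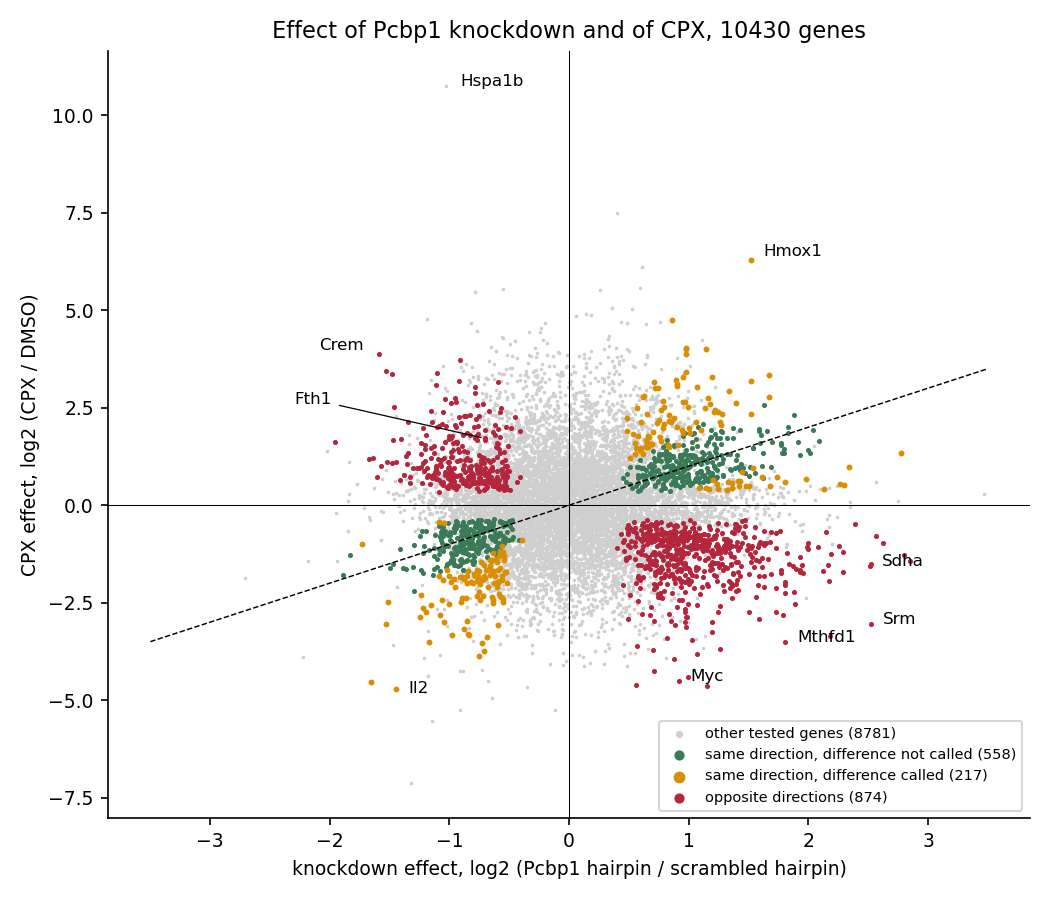
Knockdown effect (x axis, log2 of Pcbp1 hairpin over scrambled hairpin) against CPX effect (y axis, log2 of CPX over DMSO) for the 10430 tested genes, each a point, with the dashed line of equal effects. The 874 genes called in opposite directions lie in the upper left and lower right, the 217 called in the same direction with a called difference lie off the line in the other quadrants, and the 558 without one lie along it.

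By calls for both effects and the difference, the tested genes fell into classes. Effects of opposite sign, with all 3 values called, were found in 874 genes (8.38%): 551 rose after the knockdown and fell with CPX (5.28%), and 323 did the reverse (3.1%). Another 217 genes (2.08%) moved the same way by unequal amounts, and 558 (5.35%) moved the same way with no difference called. The difference was called with the knockdown effect alone in 651 genes (6.24%), with the CPX effect alone in 3276 (31.4%), and with neither effect called in 234 (2.24%). Below, a change with 1 perturbation alone means that the other effect was not called, which does not show that it was absent. The knockdown effect was called for 2618 genes (25.1%, 14.3% higher and 10.8% lower) and the CPX effect for 6191 (59.4%, 29.3% higher and 30.1% lower). These class sizes rest on the variance model and on individual libraries. With 1 variance for each experiment the knockdown effect was called for 6308 genes and the CPX effect for 4635. With each experiment fitted by itself the counts were 6308 and 4325, so the order of the 2 counts was reversed. Genes of opposite sign numbered 90 and 108 without scrambled replicate 1 or 2, 151 and 64 without Pcbp1 hairpin replicate 1 or 2, and 1740 and 1839 without CPX replicate 1 or 2. For genes of unequal size in the same direction the counts were 13, 12, 12 and 7 without each hairpin library in that order, 131 and 132 without DMSO replicate 1 or 2, and 759 and 841 without CPX replicate 1 or 2. For same-direction genes without a called difference they were 45, 69, 83 and 29 without each hairpin library and 945 and 888 without CPX replicate 1 or 2. Calls of the difference itself covered 35.3% to 65.1% of genes when a library was left out. Of 200 named genes called for the difference, 188 kept the call under every one of the 20 alternatives in which they were tested, 173 of them being tested under all 20. Most were named for the size or the p of this same difference, so that count does not describe the called genes in general.

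Growth genes were among the largest differences on the high side. Myc, the transcription factor that drives growth of activated T cells, stood at 382 and 474 CPM with the scrambled and 731 and 884 with the Pcbp1 hairpin, and at 1469 and 1105 with DMSO and 65.9 and 47.0 with CPX. The hairpin groups did not overlap, and the CPX libraries lay far below DMSO. Myc thus rose 1.89-fold after the knockdown and fell 22.7-fold with the chelator, a difference of 5.42 (SE 0.32, limma, adjusted p = 8.51e-05). Srm encodes spermidine synthase, a polyamine enzyme. It stood at 41.5 and 40.3 against 227 and 250 in the knockdown, the Pcbp1 hairpin libraries being the high ones, and at 466 and 362 against 77.4 and 31.1 in the chelation experiment. Its effects were 2.53 and -3.05, the difference 5.58 (SE 0.52, limma, adjusted p = 0.000268). Odc1, which encodes the enzyme before it in that pathway, rose by 0.63 and fell by 1.26 with CPX, while Oaz1, an inhibitor of that enzyme, fell by 0.60 and rose by 1.23. Of the 21 tested polyamine and amino acid transport genes, 7 were called higher and 6 lower.

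Ribosome biogenesis factors, which help to transcribe and process ribosomal RNA and assemble the subunits, were higher after the knockdown than with CPX in 31 of 44 tested members, and none was lower (median difference 1.74, against 0.00 over all genes). After the knockdown 17 rose and 1 fell, and with CPX 1 rose and 35 fell; 13 were called with opposite signs. Polr1b, a subunit of RNA polymerase I, stood at 102 and 117 against 239 and 250 CPM in the knockdown and at 318 and 262 against 17.1 and 7.11 in the chelation experiment. Neither pair of groups overlapped, and its difference was 5.79 (SE 0.49, limma, adjusted p = 0.000192). Nop56, a core protein of box C/D snoRNPs, stood at 215 and 200 against 439 and 484 and at 691 and 648 against 159 and 171. It rose by 1.15 and fell by 2.02, each change well past the gap between replicates (difference 3.17, SE 0.18, limma, adjusted p = 8.51e-05). Bysl and Bop1, assembly factors of the small and the large subunit, had differences of 3.41 and 2.81. For Rrp1b, a nucleolar protein, the knockdown effect of 0.50 was not called, the fall with CPX was 2.78 and the difference 3.28. Ddx21, a nucleolar RNA helicase, rose with the knockdown from 175 and 170 to 798 and 974 CPM, while 1602 and 1195 with DMSO overlapped 1695 and 1042 with CPX.

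**Figure D2:**
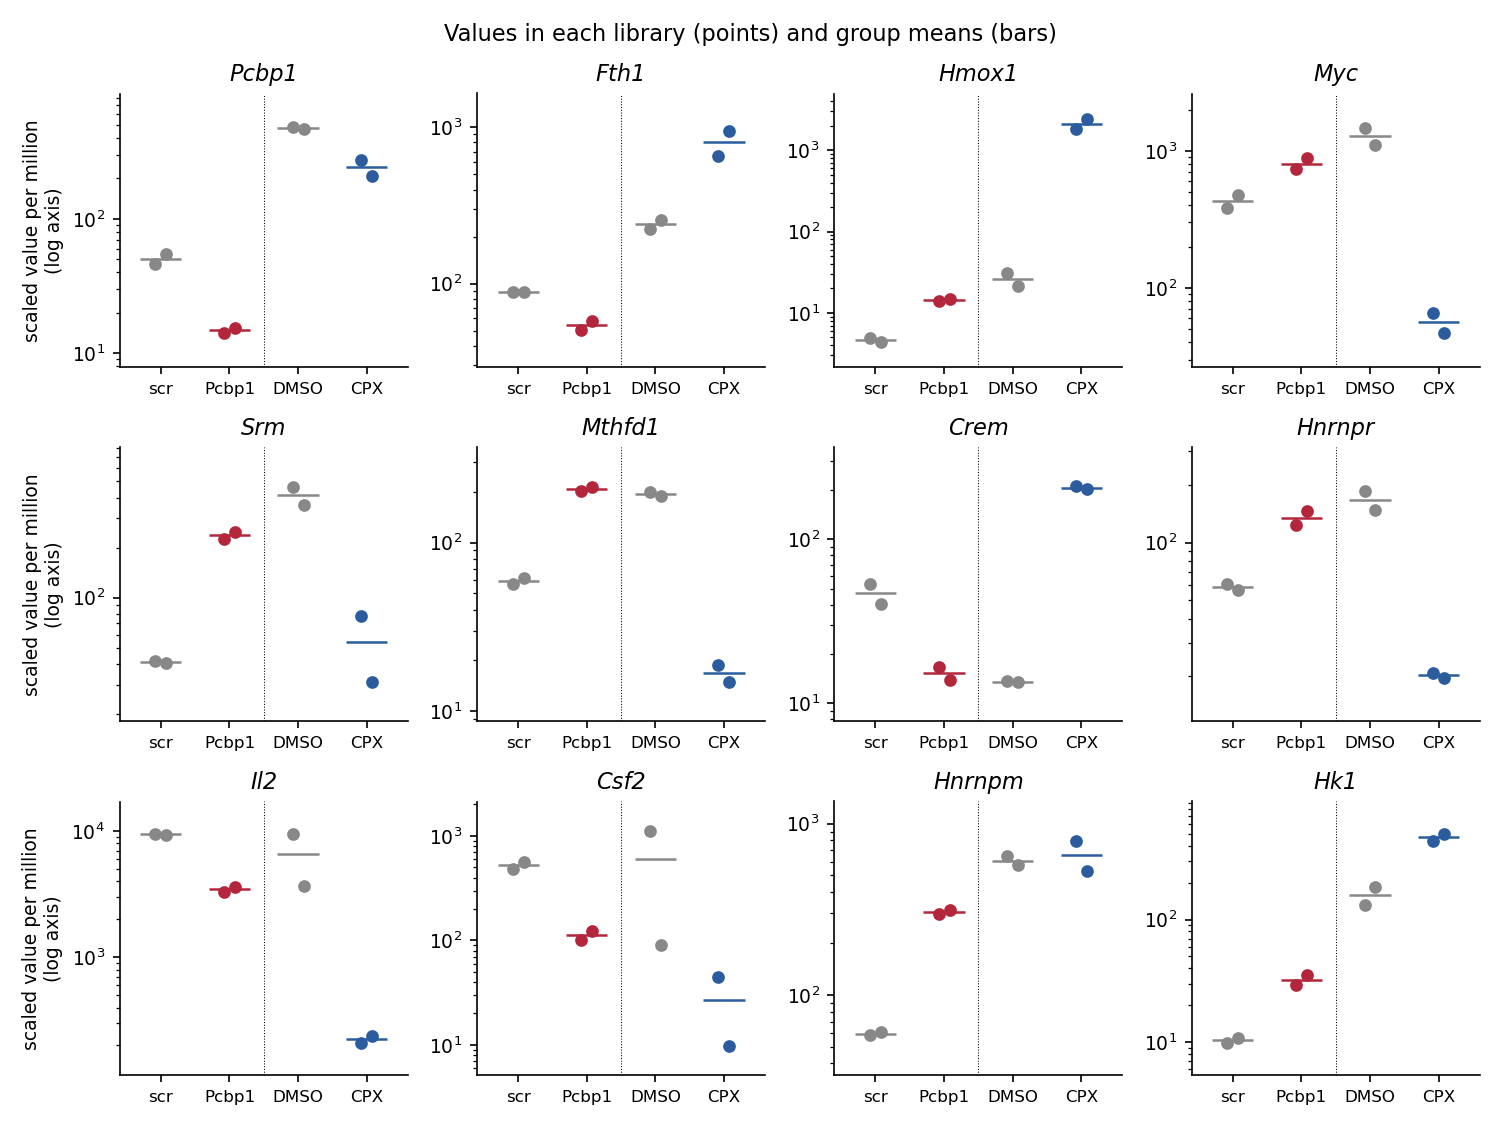
Scaled CPM (log axis) of 12 genes in each library (points) with the group mean (bar), for the scrambled (scr) and Pcbp1 hairpin and, right of the dotted line, DMSO and CPX. Myc, Srm, Mthfd1 and Hnrnpr rise left of the line and fall right of it, Fth1 and Crem do the reverse, Il2 falls on both sides and Hk1 rises on both, while Csf2 shows the wide gap between the DMSO libraries (1123 and 91.1).

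Nucleotide synthesis genes shared that pattern in part. Of 30 tested purine, pyrimidine and one-carbon genes, 17 were called higher and 3 lower, with a median difference of 1.06 beside medians of -1.0 for CPX and 0.00 for the knockdown. Without CPX replicate 2, 6 were lower. Mthfd1, a folate enzyme that supplies one-carbon units, stood at 56.6 and 61.9 against 203 and 214 in the knockdown and at 199 and 189 against 18.7 and 14.9 with the chelator. The replicates of each group lay close together, and the difference was 5.31 (SE 0.21, limma, adjusted p = 8.51e-05). Cad carries the opening steps of pyrimidine synthesis. It stood at 148 and 164 against 230 and 231 and at 443 and 417 against 14.7 and 19.8, a small rise beside a 24.6-fold fall (difference 5.18). Gart, of purine synthesis, moved likewise (0.68 and -2.82), and Dhodh, the mitochondrial enzyme of pyrimidine synthesis, was called for CPX alone (-3.57).

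Other genes of the largest opposite effects served varied functions. Dpagt1, which starts the lipid-linked precursor of N-glycans, had effects of 2.18 and -3.36. Akap1, an anchor of protein kinase A at mitochondria, had effects of 1.00 and -4.40, and Dbt, a subunit of the branched-chain ketoacid dehydrogenase, 0.71 and -4.25. In the lower direction, Crem, a transcription factor of the cAMP response, stood at 53.7 and 40.6 against 16.7 and 13.8 CPM in the knockdown and at 13.6 and 13.4 against 211 and 203 with the chelator. All 4 groups were tight, and the difference was -5.48 (SE 0.26, limma, adjusted p = 8.51e-05). The uncharacterized 2610039C10Rik and A930001N09Rik had differences of -4.85 and -4.62. Csrp1, a LIM domain protein, had effects of -1.11 and 3.40, Ctsl (cathepsin L) -0.92 and 3.18, and Parp3, a DNA repair enzyme, -0.79 and 3.02. H2-Q4, a nonclassical MHC class I gene whose reads can be shared with its close relatives, had effects of -1.11 and 3.09. The difference was called for all 16 named genes of opposite sign under every alternative. Their knockdown call held for 3 and 5 of them on leaving out scrambled replicate 1 or 2, for 6 and 3 on leaving out Pcbp1 hairpin replicate 1 or 2, and for 12 without either DMSO library or with length and GC content taken out.

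Cytosolic ribosomal protein genes ran opposite to the factors that build the ribosome. Of 77 tested, 57 were called lower and none higher, with a median difference of -1.25, made up of -0.58 after the knockdown and 0.68 with CPX. After the knockdown 33 fell and 2 rose, with CPX 60 rose and none fell, and 29 were called with opposite signs. The median was -0.83 with no median ratio scaling and -0.71 with quantile normalization, and 1 or 2 members were called higher under several alternatives, among them the omission of scrambled replicate 1 (1) or CPX replicate 1 (2). Rpl39, of the large subunit, stood at 728 and 775 against 324 and 304 CPM in the knockdown and at 369 and 322 against 754 and 586 in the chelation experiment. The groups were apart in both, and the difference was -2.20 (SE 0.23, limma, adjusted p = 0.000402). Rps20, of the small subunit, stood at 1010 and 1064 against 526 and 486 and at 899 and 768 against 1553 and 1433 (difference -1.88). Rps19 and Rpl34 had differences of -1.72 and -1.96. Rpl11, named here after its values were seen, rose in both experiments (1.5 and 0.75) with no difference called. Ribosomal protein genes have many processed pseudogenes, so how reads were shared among copies is uncertain. Across the 10300 genes with a length and GC content, the knockdown effect had a Spearman correlation of 0.326 with transcript length and 0.261 with GC content, the CPX effect 0.082 and 0.011, and the difference 0.064 and 0.104.

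Mitochondrial ribosomal proteins, which resemble neither list, were called higher in 30 of 75 and lower in 8, with a median of 0.55. Here both effects were low, with medians of -0.51 after the knockdown and -1.05 with CPX; 16 moved the same way with no difference called. Mrps5 and Mrps2 were called for CPX alone (-2.70 and -2.61), Mrpl50 rose by 1.09 and fell by 2.28, and Mrpl33 fell by 1.01 and rose by 0.82. The lower calls numbered 5 without scrambled replicate 2, without Pcbp1 hairpin replicate 1 or with no median ratio scaling, and 15 without CPX replicate 2. Translation factors and tRNA synthetases split evenly, with 12 of 46 higher and 12 lower (median 0.04), close to the 26.3% and 24.1% of all genes. Kars, the lysyl-tRNA synthetase, rose from 94.2 and 86.8 to 331 and 360 CPM after the knockdown and fell from 339 and 306 to 133 and 122 with CPX (difference 3.27), while Cars, the cysteinyl-tRNA synthetase, rose with CPX (1.40, difference -1.56). The higher calls of this list became 20 with no median ratio scaling or with quantile normalization and 19 without CPX replicate 1, and the lower calls 7 without Pcbp1 hairpin replicate 2.

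**Figure D3:**
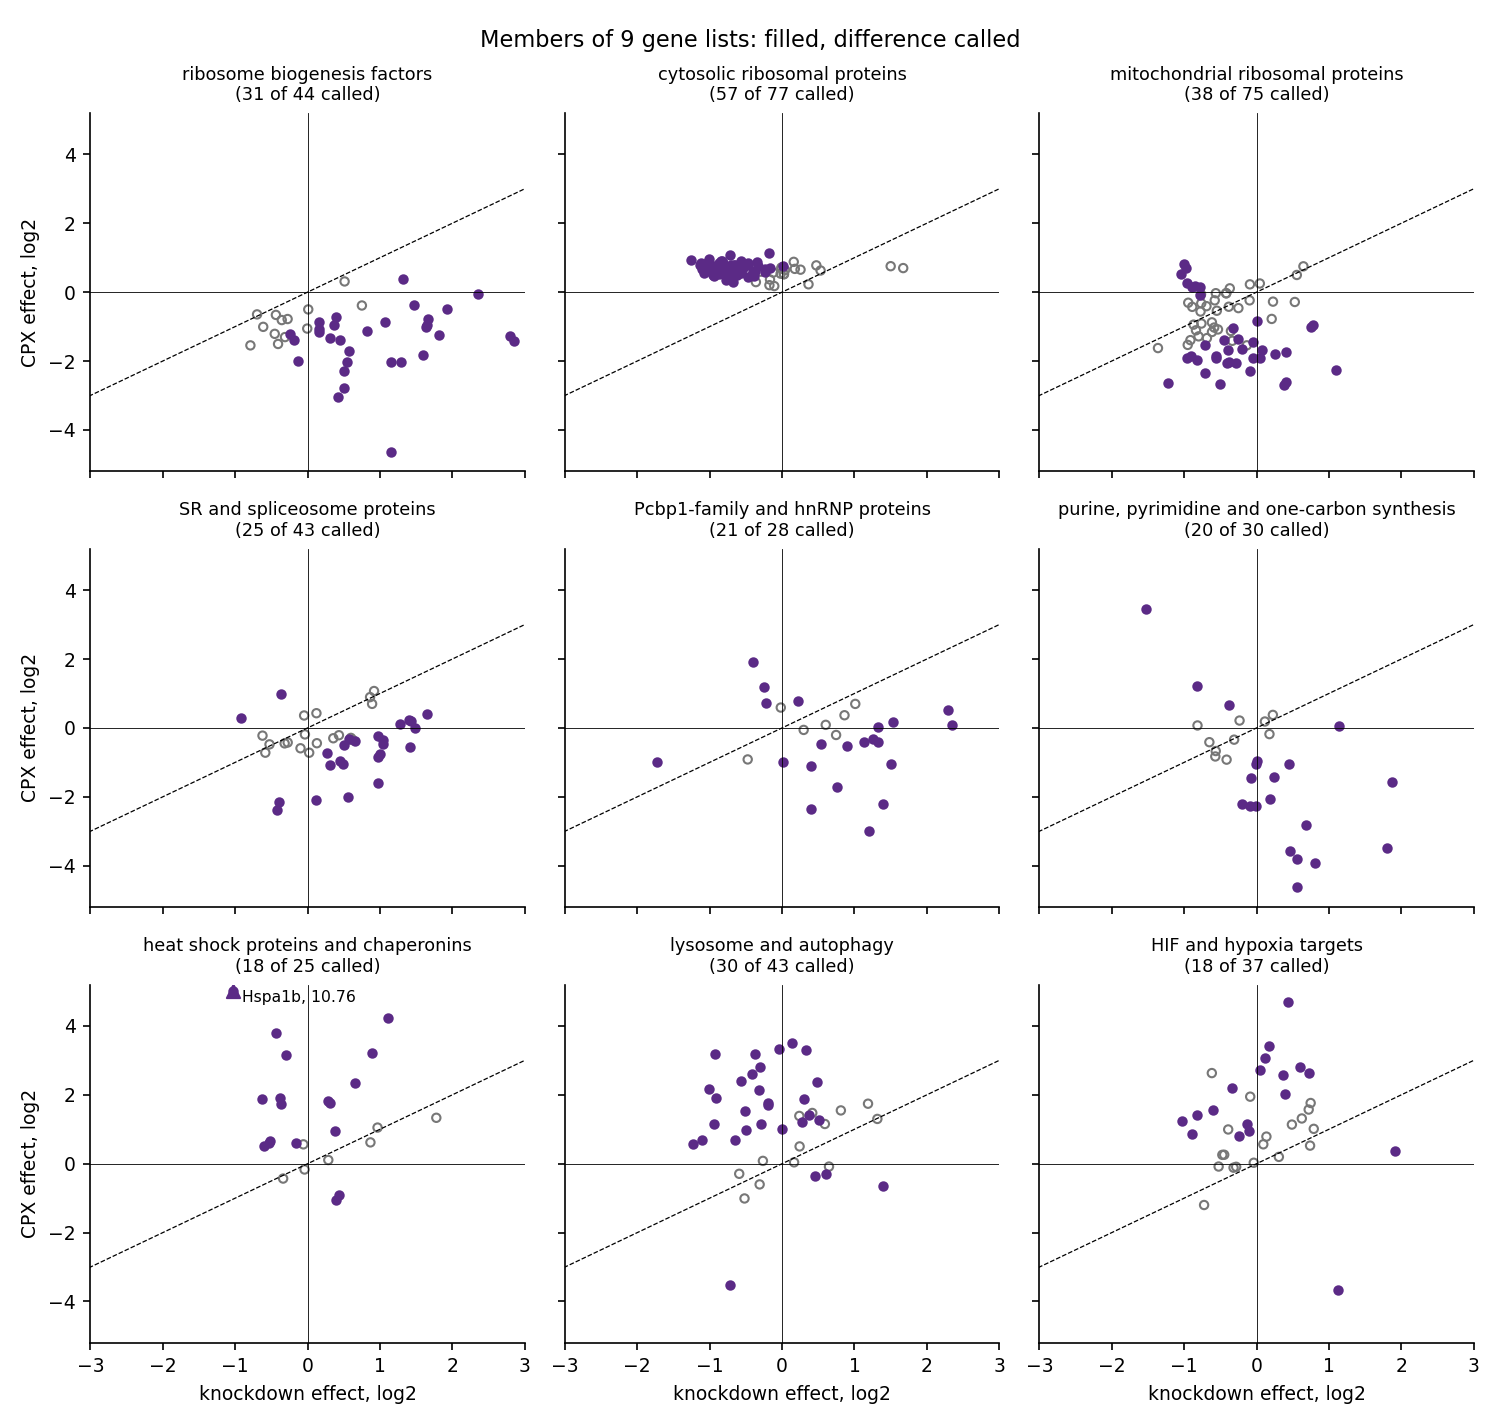
Knockdown effect (x axis) against CPX effect (y axis), both log2, of the tested members of 9 gene lists, filled where the difference was called, with the dashed line of equal effects. Most ribosome biogenesis factors lie below the line and most cytosolic ribosomal proteins, heat shock and lysosomal genes above it; Hspa1b, with a CPX effect of 10.76, is drawn as a triangle at the upper edge.

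RNA-binding proteins of the hnRNP group, the family of nuclear pre-mRNA binders that includes PCBP1, were higher after the knockdown than with CPX in 16 of 28 members and lower in 5, with a median difference of 1.16 (knockdown 0.75, CPX -0.27). After the knockdown 14 rose and 2 fell. The list includes Pcbp1 itself, which the hairpin was made to lower and which is among the lower calls (difference -0.74). Hnrnpr stood at 60.6 and 56.5 against 123 and 147 CPM in the knockdown and at 187 and 148 against 20.9 and 19.6 with CPX. Groups did not overlap in either experiment, and the difference was 4.20 (SE 0.23, limma, adjusted p = 8.51e-05). Hnrnpm, a splicing regulator, stood at 58.2 and 60.7 against 298 and 312, while 647 and 573 with DMSO overlapped 789 and 532 with CPX. Its knockdown effect of 2.35 was called alone, and the difference was 2.26 (SE 0.28, limma, adjusted p = 0.000669). Hnrnpab and Hnrnpul1 had effects of opposite sign (1.5 and -1.06; 0.40 and -1.11), and so, in the other direction, did Raly (-0.41 and 1.91). The lower calls numbered 3 without any of scrambled replicate 1 or 2, Pcbp1 hairpin replicate 1 or 2 or DMSO replicate 2, and 2 with no median ratio scaling or quantile normalization. Among SR and spliceosome proteins, 23 of 43 were higher and 2 lower (median 1.00; 6 lower without CPX replicate 2). Eftud2 and Sf3a1, of the U5 and U2 particles, rose by 0.97 and 1.00 after the knockdown and fell by 1.61 and 0.76 with CPX. Prpf31 had effects of 0.56 and -2.00, and Srsf2, an SR protein, was called for CPX alone (-2.10). Of 30 regulators of cytokine mRNA stability 8 were higher and 6 lower (14 higher with no median ratio scaling). Zfp36, which promotes decay of AU-rich mRNAs, rose in both, by 1.14 and 4.0, and Khsrp, another decay factor, rose by 1.06 and fell by 0.81. Arid5a, which stabilizes such mRNAs, and Tob1, a recruiter of deadenylases, were called for CPX alone (2.6 and 3.0).

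Of the 17 tested iron genes 58.8% were called for the difference, against 50.4% of all genes. Pcbp1, the target of the hairpin, and Pcbp2 are among the 17 and were called lower (-0.74 and -0.57). Both ferritin genes stood relatively lower after the knockdown than with CPX. Fth1, the ferritin heavy chain that takes iron from PCBP1, stood at 88.3 and 89.0 against 50.8 and 58.0 CPM in the knockdown and at 225 and 256 against 656 and 947 with the chelator. It was low with the Pcbp1 hairpin and high with CPX without overlap (-0.70 and 1.71), a difference of -2.41 (SE 0.27, limma, adjusted p = 0.000495). Ftl1, the light chain, rose with CPX by 2.02 and its knockdown effect of -0.26 was not called (difference -2.28). Ferritin genes also have processed pseudogenes. Hmox1, the oxygenase that releases iron from heme, stood at 4.96 and 4.43 against 14.0 and 14.8 and at 31.2 and 21.7 against 1809 and 2415. It rose in both, 2.87-fold and 78.7-fold, and the difference was -4.78 (SE 0.31, limma, adjusted p = 0.000105). Bach1, a heme-regulated repressor of Hmox1, stood at 38.5 and 39.0 against 49.9 and 52.0 and at 33.1 and 37.8 against 307 and 490, a rise with CPX that the knockdown effect of 0.39 did not match by call (difference -3.05). Aco1, the aconitase that doubles as iron regulatory protein, rose from 20.7 and 25.9 to 53.9 and 53.5 after the knockdown and fell from 46.7 and 50.7 to 17.8 and 13.3 with CPX (difference 2.82, SE 0.27, limma, adjusted p = 0.000287). For Tfrc, the transferrin receptor, 3223 and 3336 stood against 2032 and 2173 and 1232 and 1170 against 496 and 813. It was low in both treated groups, and its difference of 0.28 (SE 0.33, limma, adjusted p = 0.512) was not called; it was 0.60 (0.0396) without CPX replicate 2 and 1.08 (0.0345) with quantile normalization. In all, 4 of 17 tested iron genes were higher and 6 lower (median 0.25; 7 higher without CPX replicate 2).

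Users of iron were split too. By share, 54.5% of iron-sulfur cluster and heme genes and 44.1% of iron-dependent dioxygenases were called for the difference, against 50.4% of all genes. Of 33 iron-sulfur cluster and heme genes 12 were higher and 6 lower (median 0.51). Glrx5, a glutaredoxin of cluster transfer, stood at 15.3 and 14.0 against 36.8 and 36.0 and at 60.3 and 60.8 against 18.8 and 19.0. Both shifts were many times the gap between replicates (difference 2.94, SE 0.20, limma, adjusted p = 0.000125). Bola3, a partner in cluster delivery, moved the same way as Glrx5 (1.04 and -1.30). Slc25a38, the glycine importer of heme synthesis, moved in reverse (-0.79 and 2.00). Of 34 iron-dependent dioxygenases 5 were higher and 10 lower (median 0.08). Mina, a ribosomal oxygenase, rose by 1.33 and fell by 1.10 with CPX, whereas the histone demethylases Kdm5a and Jhdm1d and the prolyl hydroxylase of collagen P4ha2 rose with CPX alone (2.15, 2.58 and 3.08). The higher calls among dioxygenases numbered 3 without any hairpin library, 13 without CPX replicate 2, 10 with no filter and 11 with no median ratio scaling.

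HIF is the hypoxia factor whose hydroxylases need iron. Of 37 tested HIF targets, 16 were called lower, against 24.1% of all genes, and 2 higher (median -1.04, with medians of 0.05 after the knockdown and 1.14 with CPX). With CPX 20 rose and 1 fell, while after the knockdown 1 rose and 1 fell. Vegfa, the vascular growth factor, stood at 26.4 and 26.6 against 25.9 and 29.1 and at 47.5 and 37.4 against 278 and 289. The hairpin groups overlapped and the CPX libraries were high (difference -2.68, SE 0.22, limma, adjusted p = 0.000185). Stc2, a secreted glycoprotein, fell by 0.60 after the knockdown and rose by 1.56. Car12, a carbonic anhydrase, was an exception, with a CPX effect of -3.67 (difference 4.78). Bnip3, of mitophagy, stood at 7.85 and 9.81 against 5.12 and 6.00 and at 2.50 and 18.0 against 24.2 and 85.9. Its difference of -3.25 missed the call (SE 1.2, limma, adjusted p = 0.0554), and it was -4.52 (adjusted p = 0.0101) without DMSO replicate 2 and -4.17 (0.0182) without CPX replicate 1. It was called with quantile normalization (-3.27, limma, adjusted p = 0.0436), with 1 variance for each experiment (0.0135) and with each experiment fitted by itself (0.0321). The replicate number as a block also gave a call (limma, adjusted p = 0.00271). The glucose transporter Slc2a1 (-0.47), the kinase Pdk1 (-0.65) and the HIF hydroxylase Egln3 (0.47) were not called, but without CPX replicate 1 Slc2a1 (-1.44, limma, adjusted p = 0.0309) and Pdk1 (-1.33, adjusted p = 0.0414) were. Without CPX replicate 1, 26 of the list were lower, and without CPX replicate 2, 4 were higher.

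Stress genes were split into lists by pathway. Called for the difference were 72% of heat shock genes, 61.3% of ATF4 and ER stress genes and 59.3% of NRF2 and antioxidant genes. Over all genes the share was 50.4%. Among heat shock proteins and chaperonins, 16 of 25 were called lower and 2 higher, Hsf1 and Hsf2, the factors themselves, named after their values were seen (median -1.13; 5 higher with no median ratio scaling and 7 with quantile normalization). Hspa1b, an inducible HSP70, stood at 4.74 and 6.05 against 3.68 and 1.48 and at 5.39 and 5.19 against 19312 and 5217. The last 2 values are the CPX libraries, and the difference of -11.78 (SE 0.83, limma, adjusted p = 0.000132) was the largest of all named genes. Hspa1a is nearly identical, so the reads of the 2 genes may be mixed. Dnajb1, a cochaperone, stood at 87.8 and 93.1 against 72.9 and 73.3 and at 77.4 and 77.4 against 689 and 690 (difference -3.45, SE 0.17, limma, adjusted p = 8.51e-05), and Dnajb4 differed by -4.22. Hspe1, the mitochondrial cochaperonin, was called with opposite signs, from 360 and 356 to 230 and 231 and from 240 and 221 to 1007 and 721 (difference -2.52).

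Since Hspa1b and Hspe1 carry the largest difference and an opposite pair of effects in this group, 150 bases before the start of each are shown, from RefSeq's GRCm38.p6, 5′ to 3′ on the gene's strand. Capitals mark the letters GAANNTTC, a pair of inverted heat shock element units, which read the same on both strands.
Hspa1b, chr17:34959239-34959388, minus strand: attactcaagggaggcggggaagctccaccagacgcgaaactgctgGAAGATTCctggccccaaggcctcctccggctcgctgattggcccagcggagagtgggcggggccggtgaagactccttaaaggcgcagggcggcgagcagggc
Hspe1, chr1:55087998-55088147, plus strand: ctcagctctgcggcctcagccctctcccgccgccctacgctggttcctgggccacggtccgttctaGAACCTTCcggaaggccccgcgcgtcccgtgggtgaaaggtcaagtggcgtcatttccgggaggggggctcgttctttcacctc
The match begins 104 bases before the start of Hspa1b and 84 before that of Hspe1. In windows of 250 bases before to 50 after a start, 7 of the 19 list genes that could be matched by symbol hold these letters (Bag3, Cct2, Dnaja1, Hspa1b, Hspd1, Hspe1 and Hsph1), and all 7 were called lower, as were 16 of the 25 tested genes of the list. Counted by promoter, 8 of the list's 27 hold them (29.6%), against 7.86% of all 32851 promoters, of tested genes or not. A match is a description of letters, and binding was not measured. The part of these letters in the differences was not tested.

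Of 31 ATF4 and ER stress genes 13 were lower and 6 higher (median -0.66; 8 lower without scrambled replicate 1 or Pcbp1 hairpin replicate 2). Ddit3, which encodes the stress factor CHOP, stood at 10.7 and 9.66 against 10.4 and 6.94 and at 7.80 and 8.95 against 169 and 216. Only the CPX libraries stood out among these 8, and the difference was -4.68 (SE 0.33, limma, adjusted p = 0.000132). Trib3, a pseudokinase induced by ATF4, differed by -5.97 and Cebpb by -4.14, while the ER chaperones Pdia4 and Creld2 fell with CPX (-2.04 and -1.90). Of 27 NRF2 and antioxidant genes 11 were lower and 5 higher (median -0.65; 17 lower without CPX replicate 1, and 3 higher without any hairpin library or DMSO replicate 1). Sod1, the cytosolic superoxide dismutase, stood at 215 and 231 against 95.1 and 105 and at 305 and 277 against 732 and 873 (difference -2.61). The mitochondrial enzyme Sod2 ran in reverse, at 55.1 and 53.5 against 99.6 and 104 and at 101 and 99.2 against 42.6 and 34.2 (difference 2.28, SE 0.21, limma, adjusted p = 0.000239). Gclc, of glutathione synthesis, and the metallothionein Mt2 rose with CPX alone (1.97 and 3.82).

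Lysosome and autophagy genes were lower in 26 of 43 and higher in 4 (median -1.34, with -0.19 after the knockdown and 1.30 with CPX; 2 higher without scrambled replicate 1 or Pcbp1 hairpin replicate 2). With CPX 32 rose and 3 fell. Ctsl stood at 19.7 and 22.3 against 9.34 and 12.5 and at 10.6 and 8.14 against 94.6 and 82.0. It was low with the Pcbp1 hairpin and high with CPX (difference -4.10, SE 0.30, limma, adjusted p = 0.000139). Sqstm1, the autophagy receptor p62, went from 199 and 194 to 2239 and 1663 with CPX, against 107 and 115 and 135 and 144 in the knockdown (difference -2.97). Atp6v0d1, of the proton pump, had opposite effects (-0.57 and 2.39). Gusb, a lysosomal glucuronidase, fell in both (-0.73 and -3.53). In the same CPX libraries the macrophage marker sum was 54.5 to 72.8 CPM, with the lysosomal marker Cd68 at 14.1 and 15.2; its part in these values was not tested.

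Of 30 T cell cytokines tested, 10 were called higher for the difference, against 26.3% of all genes, 1 was called lower and 19 were not called, with medians of -0.82 after the knockdown, -1.69 with CPX and 1.48 for the difference (6 higher without scrambled replicate 1; 2 lower without either DMSO library or CPX replicate 2). Il2, the T cell growth factor, stood at 9462 and 9391 against 3326 and 3616 and at 9484 and 3658 against 211 and 236. It was low in both treated groups, though the DMSO libraries lay far apart (-1.44 and -4.72, difference 3.28, SE 0.56, limma, adjusted p = 0.00258). Csf2, which encodes GM-CSF, stood at 482 and 564 against 102 and 122 and at 1123 and 91.1 against 44.6 and 9.77. The hairpin groups were well apart, although the knockdown effect of -2.22 was not called in the shared fit, and DMSO replicate 2 was close to the CPX libraries. The difference of 1.68 was not called (SE 1.55, limma, adjusted p = 0.398). Taking the replicate number as a block in the fit, the same difference was called (limma, adjusted p = 0.0371). It was 3.51 (0.0324) without DMSO replicate 2, -0.10 (0.942) without DMSO replicate 1, 0.58 (0.763) without CPX replicate 2 and 2.73 (0.168) without CPX replicate 1.

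Ifng, the signature cytokine of Th1 cells, stood at 52883 and 43260 against 23217 and 18309 and at 13272 and 20817 against 1280 and 5202. It was lower in both treated groups without overlap, by call with CPX only, and the difference of 1.47 was not called (SE 0.86, limma, adjusted p = 0.187). The difference was called with quantile normalization (2.57, limma, adjusted p = 0.0426) and with the replicate number as a block (1.47, adjusted p = 0.0428). Without CPX replicate 2 it was 2.45. Tnf stood at 916 and 1025 against 963 and 837, which overlap, and at 1341 and 1048 against 160 and 386. Tnf therefore fell with CPX alone (difference 2.14, SE 0.52, limma, adjusted p = 0.0121). Il4, of Th2 cells, stood at 61.3 and 75.4 against 10.9 and 9.10 and at 84.6 and 17.0 against 17.4 and 5.70, with DMSO overlapping CPX and no difference called (-0.83, SE 1.04, limma, adjusted p = 0.528). Il17f was called for CPX alone (-4.50). Areg, a ligand of the EGF receptor, was the lower call. It stood at 19.5 and 15.5 against 5.06 and 3.30 and at 17.5 and 9.26 against 38.1 and 43.2 (difference -3.59). Mif, a cytokine stored in resting cells, rose by 0.77 and fell by 0.72.

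Chemokines showed a larger gap, with 7 of 9 higher and 1 lower (median 3.26; none lower with a filter of 5 CPM). Ccl1, a ligand of CCR8, stood at 838 and 960 against 389 and 329 and at 1063 and 106 against 3.44 and 0.977. The DMSO libraries were 10-fold apart, yet both lay above CPX (difference 5.80, SE 1.34, limma, adjusted p = 0.0095). Ccl3, an inflammatory chemokine, stood at 8908 and 9843 against 7581 and 6510 and at 4678 and 3301 against 668 and 930 (difference 1.90). Ccl5, a chemokine of activated T cells, was called with opposite signs, from 19.9 and 18.6 up to 64.7 and 47.5 and from 110 and 132 down to 21.8 and 56.7 (difference 3.26, SE 0.56, limma, adjusted p = 0.00276). Cxcl10 was the lower call (-1.97), at no more than 3.48 CPM in any library.

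Among Th1 regulators and receptors 6 of 17 were higher and 1 lower (median 0.59; 2 lower without either CPX library). Tbx21, the master regulator of Th1 cells, stood at 43.4 and 38.4 against 54.3 and 45.2 and at 53.8 and 119 against 97.7 and 99.4. Its difference of -0.02 (SE 0.47, limma, adjusted p = 0.976) left no direction. Nkg7, a granule protein, rose after the knockdown from 80.9 and 61.3 to 375 and 280, while 218 and 401 with DMSO overlapped 88.9 and 250 with CPX (difference 3.18). Cxcr3 and Havcr2, receptors of Th1 cells, fell with CPX alone (-2.20 and -1.44), and Irf1 rose with it (2.11). Chains of the T cell receptor complex went apart from each other: Cd3e rose by 0.83 and fell by 1.08 with CPX, while Cd3d stood at 364 and 359 against 158 and 151 and at 169 and 220 against 447 and 371, falling by 1.22 and rising by 1.07. Bcl10, an adaptor to NF-κB, followed Cd3d (-0.62 and 2.07). Of 20 genes of that complex 6 were higher and 4 lower (3 higher without scrambled replicate 1 or 2, Pcbp1 hairpin replicate 2 or DMSO replicate 2 or with a filter of 5 CPM, and 11 with no median ratio scaling).

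The receptor Cd200 stood at 491 and 502 against 475 and 534, which overlap, and at 220 and 238 against 14.3 and 16.9 (difference 3.86, SE 0.20, limma, adjusted p = 8.51e-05). It was 1 of 3 higher calls among 18 coinhibitory and costimulatory receptors, none of which was lower; 2 were lower without DMSO replicate 2 or either CPX library, and 1 with 1 variance for each experiment or each experiment fitted by itself. The higher calls were 5 with no median ratio scaling or quantile normalization and 6 without CPX replicate 2. With the replicate number as a block in the fit, 6 of the 18 were higher and 4 lower. Among 17 receptors and signal proteins of IL-2 and the common gamma chain 2 were higher and 8 lower. Stat5b, a transcription factor downstream of IL-2, fell with CPX alone by 3.15. Il7r, the IL-7 receptor, and Il2rb, a chain of the IL-2 receptor, differed by -2.29 and -1.43, and Socs2, a feedback inhibitor, had opposite effects (-1.33 and 0.72).

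Transcription factors of early activation were called in both directions, 9 of 30 higher and 11 lower (median -0.57). Irf4 stood at 683 and 784 against 1140 and 1256 and at 1204 and 1276 against 240 and 327. It followed Myc, with no overlap between groups in either experiment (difference 2.85, SE 0.26, limma, adjusted p = 0.000239). The AP-1 members Fosb and Jun were called for CPX alone. With CPX Fosb rose from 7.03 and 6.67 to 519 and 491 and Jun from 58.4 and 47.5 to 381 and 320 (differences -5.49 and -2.58). Quiescence, homing and memory genes were higher in 6 of 27 and lower in 10 (median -0.81). Slfn2, a Schlafen protein of T cell quiescence, stood at 1487 and 1656 against 1388 and 1513 and at 1293 and 1115 against 20 and 47.3, not called in the knockdown and 38.4-fold lower with CPX (difference 5.15). Foxp1 rose by 1.45 and fell by 0.40, Klf6 rose with CPX alone by 2.37, and Foxo3 rose in both (0.91 and 3.04). Bcl6, the factor of follicular helper cells, stood at 6.74 and 9.22 against 21.1 and 20.4 and at 18.0 and 20.6 against 179 and 126. It too rose in both, further with CPX (difference -1.59, SE 0.32, limma, adjusted p = 0.00541).

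**Figure D4:**
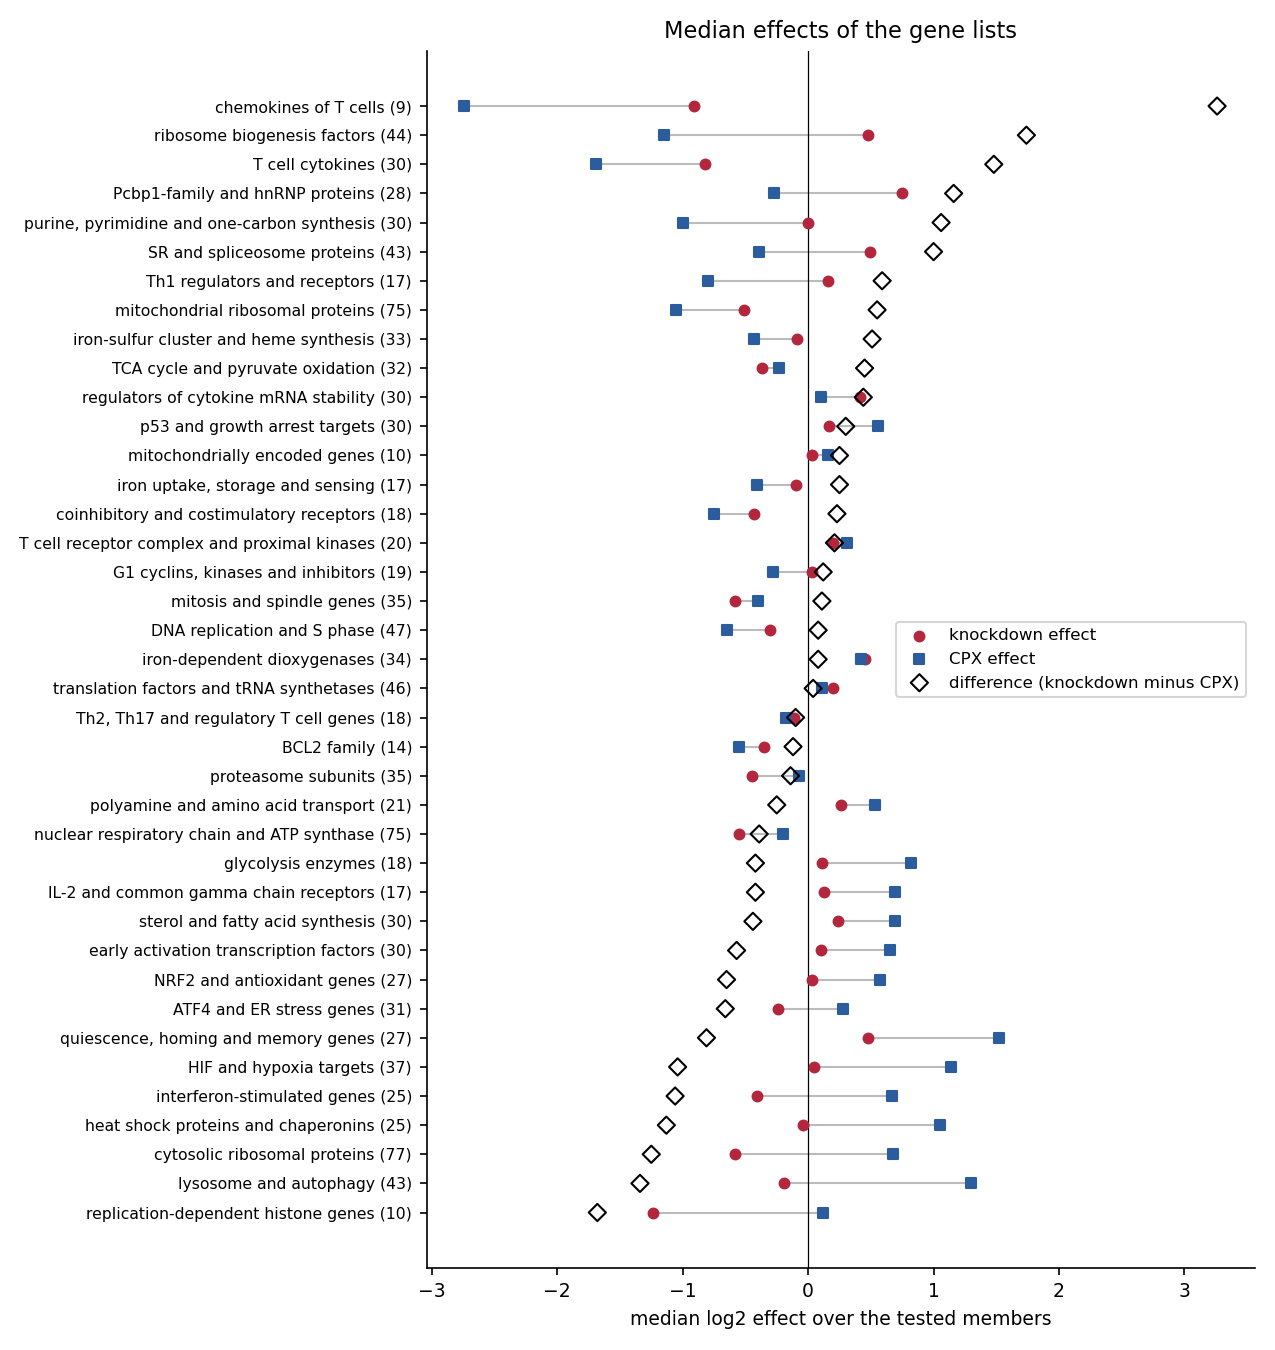
Median log2 effect over the tested members of each gene list (number tested in brackets), for the knockdown (circles), CPX (squares) and the difference (diamonds), sorted by the difference. Chemokines (3.26) and ribosome biogenesis factors (1.74) lead at the top, and histone genes (-1.68), lysosome and autophagy genes (-1.34) and cytosolic ribosomal proteins (-1.25) stand at the bottom; the median over all tested genes is 0.00.

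Genes of mitochondrial energy supply had no common direction. The share called for the difference was 56.2% of TCA cycle and pyruvate genes and 45.3% of respiratory chain genes, against 50.4% of all genes. Of 32 TCA cycle and pyruvate genes 12 were higher and 6 lower (median 0.45). Sdha, a flavoprotein subunit of succinate dehydrogenase, stood at 19.6 and 13.2 against 89.5 and 99.4 and at 127 and 127 against 36.1 and 51.2. It was high with the Pcbp1 hairpin and low with CPX (difference 4.07, SE 0.33, limma, adjusted p = 0.000175). Mdh2, malate dehydrogenase, rose by 1.31 and fell by 1.09, Got2, the mitochondrial aspartate aminotransferase, rose after the knockdown alone (2.17), and Brp44, a subunit of the pyruvate carrier, fell by 1.00 and rose by 0.91. Of 75 nuclear respiratory chain genes 12 were higher and 22 lower (median -0.39, and 0.03 with no median ratio scaling, when 22 were higher and 10 lower; 14 lower without Pcbp1 hairpin replicate 2 and 39 without CPX replicate 2). Ndufs7, an iron-sulfur subunit of complex I, and Cyc1, of complex III, fell with CPX alone (-1.85 and -2.59), and Uqcrq, also of complex III, fell after the knockdown alone (-1.46). Among 18 glycolysis enzymes 2 were higher and 3 lower. Hk2 stood at 52.0 and 50.4 against 131 and 128 and at 250 and 287 against 47.3 and 99.4 (difference 3.29), and Pgk1 rose with CPX alone (1.11), though its difference of -1.33 was not called with no median ratio scaling or quantile normalization. Without DMSO replicate 2 or CPX replicate 2, 5 of these enzymes were lower, and with no median ratio scaling or quantile normalization 4 or 5 were higher.

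In lipid synthesis Cyp51, of sterol synthesis, rose with CPX alone (2.70), and Fasn, the fatty acid synthase, stood at 129 and 136 against 356 and 394 and at 671 and 680 against 467 and 240. Fasn rose after the knockdown and fell with CPX (difference 2.51, SE 0.39, limma, adjusted p = 0.00183). In all 3 of 30 sterol and fatty acid genes were higher and 8 lower (3 lower without scrambled replicate 2, Pcbp1 hairpin replicate 1 or DMSO replicate 1, and 15 without CPX replicate 2; 5 higher without DMSO replicate 1 or with no filter and 7 with no median ratio scaling).

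Cell cycle and death genes gave mixed counts. The share called for the difference was 57.9% of G1 regulators, 42.6% of DNA replication genes and 14.3% of mitosis genes. It was 66.7% of p53 targets and 57.1% of the BCL2 family, against 50.4% of all genes. Among G1 regulators 7 of 19 were higher and 4 lower. Cdc25a, the phosphatase that opens S phase, stood at 23.4 and 22.5 against 47.3 and 47.4 and at 74.2 and 75.0 against 8.5 and 4.77 (difference 4.48, SE 0.35, limma, adjusted p = 0.000153). The inhibitors Cdkn1b and Cdkn1a and the retinoblastoma gene Rb1 rose with CPX alone (2.67, 2.25 and 2.47). Of 47 DNA replication genes 15 were higher and 5 lower (12 lower without CPX replicate 2 and 3 with no median ratio scaling), with Pold2, a subunit of DNA polymerase delta, at 66.6 and 65.3 against 66.4 and 68.0 and at 103 and 102 against 10.6 and 8.63 (difference 3.38). Of 30 p53 targets 7 were higher (12 without CPX replicate 2) and 13 lower, among them Fas (-0.86 and 1.86), Gadd45b (-0.88 and 2.28) and, for CPX alone, Ccng2 (3.91). In the BCL2 family 4 of 14 were higher and 4 lower (2 lower without scrambled replicate 1, Pcbp1 hairpin replicate 2 or DMSO replicate 1, with no median ratio scaling or with a filter of 5 CPM, and 7 without CPX replicate 1). The survival gene Bcl2l1 fell (-3.59) and the death genes Bbc3 and Pmaip1 rose (3.16 and 2.35) with CPX alone. Of 35 mitosis genes 4 were higher and 1 lower, and those counts ranged from 1 to 6 and from 0 to 3 when a library was left out. Cdk1, the mitotic kinase, fell in both (-1.15 and -2.57), with the difference of 1.42 not called without scrambled replicate 2, Pcbp1 hairpin replicate 1 or DMSO replicate 2 (1.15 to 1.18).

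Recovery of some RNA classes depends on the RNA selection. Replication-dependent histone mRNAs, which end in a stem loop and carry no polyA tail, had 10 of 65 listed genes above the filter in both experiments. Of these 5 were lower and none higher (median -1.68; 3 to 8 lower when a library was left out, 3 with no median ratio scaling, 3 with 1 variance for each experiment and 2 with a filter of 5 CPM). Hist1h1c, a linker histone, stood at 362 and 347 against 149 and 109 in total RNA and at 0.722 and 1.07 against 5.73 and 2.66 in polyA RNA. The CPX values are the high ones of the chelation experiment, but on the scale of a few CPM (difference -3.15, SE 0.47, limma, adjusted p = 0.00146). Histone genes have near-identical copies, so their counts are uncertain. The mitochondrial ribosomal RNA mt-Rnr2 stood at 184535 and 186311 against 186005 and 185866 in total RNA and at 344 and 297 against 2366 and 1578 in polyA RNA (difference -2.59). The groups overlapped in the knockdown and were apart with CPX. Of 10 mitochondrially encoded genes tested, 4 were lower and 2 higher (median 0.25). The higher calls numbered 0 to 5 when a library was left out (5 without CPX replicate 1, none without Pcbp1 hairpin replicate 2 or scrambled replicate 1, and 1 without scrambled replicate 2, Pcbp1 hairpin replicate 1, DMSO replicate 1 or CPX replicate 2). They were 5 with no median ratio scaling, 6 with length and GC content taken out, 4 with quantile normalization or no filter, and 1 with a filter of 5 CPM, no trend of the variance or 1 variance for each experiment. The lower calls numbered 2 without scrambled replicate 2, without Pcbp1 hairpin replicate 1 or with length and GC content taken out. RNA selection cannot be told apart from the perturbation in these differences.

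Genes could also move the same way in both experiments but by amounts that differed by test. Clec2d, a lectin-like ligand on lymphocytes, stood at 243 and 243 against 159 and 139 and at 60.2 and 59.7 against 4.16 and 3.85. It fell in both without overlap (-0.71 and -3.75, difference 3.04, SE 0.19, limma, adjusted p = 9.9e-05). Dhrs13, a dehydrogenase, fell likewise (-0.75 and -3.86), as did Batf, an AP-1 factor of T helper cells (-1.08 and -2.81). Among rises, Atg2a, a lipid transfer protein of autophagy, stood at 8.66 and 6.49 against 15.6 and 12.6 and at 28.6 and 27.8 against 804 and 744 (difference -3.90, SE 0.26, limma, adjusted p = 0.000117). Dixdc1, of Wnt signaling, and Kbtbd7, a ubiquitin ligase adaptor, rose by 0.97 and 4.0 and by 0.98 and 3.88. Pdzk1ip1 fell by 1.65 and 4.52, with CPX values of 0.121 and 0.217 CPM that rest on few reads. With Il2 and Hmox1, and Batf set aside, these were the 8 genes named for the largest such differences, and the difference was called for each under every alternative in which it could be tested. Their knockdown call held for 1 without scrambled replicate 1, for 2 without Pcbp1 hairpin replicate 1, and for none on leaving out the other hairpin library of either group.

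Some transcripts responded to about the same extent. The 10 genes named by the smallest differences among those changed at least 2-fold in both had differences from -0.03 to 0.04 with SEs of 0.20 to 0.45, and no difference was called for any of them under any alternative (-0.37 to 0.44, smallest adjusted p = 0.0976 in limma). Hk1, the hexokinase of most tissues, stood at 9.77 and 10.8 against 29.1 and 35.3 and at 132 and 185 against 440 and 505. It rose 3.02-fold and 3.01-fold, in contrast to Hk2 above. Mafg, a partner of NRF2 and BACH1 on DNA, rose by 1.09 in both, and Chmp1b, of membrane scission, by 1.27 and 1.28. Zc3hav1l and Dsp (desmoplakin) rose by 1.01 and by 1.04 to 1.05. Cmpk1, the UMP-CMP kinase, stood at 114 and 111 against 52.9 and 56.8 and at 74.2 and 62.5 against 36.6 and 30.1, a fall of 2.04-fold in each. Zfp955a, 1810035L17Rik, Fam72a and Dhrs11 fell by 1.05 to 1.51 in both. These genes were picked for their small differences, so the closeness is a description, and a missed call does not show that effects are equal. Both calls held for 2, 2, 2 and none of the 10 without scrambled replicate 1, scrambled replicate 2, Pcbp1 hairpin replicate 1 or Pcbp1 hairpin replicate 2.

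Other genes were called for the knockdown and the difference while their CPX effect stayed under 0.25 in size. Gopc, a Golgi PDZ protein, stood at 4.44 and 3.39 against 26.4 and 32.0 and at 36.4 and 28.5 against 38.5 and 31.7. The chelation groups overlapped, and the difference was 2.64 (SE 0.31, limma, adjusted p = 0.000588). Phf2, a histone demethylase, and Txn2, the mitochondrial thioredoxin, rose after the knockdown by 1.84 and 1.76. Psph, the last enzyme of serine synthesis, stood at 58.7 and 59.7 against 23.8 and 24.0 and at 28.0 and 23.6 against 28.2 and 29.1, so that it was low with the Pcbp1 hairpin (difference -1.45). Zfp472, a zinc finger gene, and Ms4a6b, a membrane protein of lymphocytes, fell by 1.15 and 1.55; the difference of Ms4a6b was not called without scrambled replicate 2, Pcbp1 hairpin replicate 1 or DMSO replicate 1, or with length and GC content taken out. The reverse pattern, a call for CPX and the difference with a small knockdown effect, gave Fem1a (-4.13) and Tnfsf9, the ligand of the costimulatory receptor 4-1BB (-3.74), among the falls. Pea15a, an adaptor of ERK and death receptor signaling, stood at 13.3 and 15.9 against 11.5 and 13.1 and at 27.9 and 27.3 against 566 and 746 (difference -4.76, SE 0.26, limma, adjusted p = 8.51e-05). Only the CPX libraries were high. Spp1 (osteopontin), also made by macrophages, stood at 36.3 and 28.9 against 20.9 and 16.5 and at 14.2 and 7.56 against 512 and 454 (difference -6.26). Its rise came in the libraries with the higher macrophage marker sum given above, for which only 4 of 10 listed markers were measured. The part of these markers was not tested.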

How the data were processed

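The per-library table holds raw counts per gene for the hairpin libraries and rescaled, rounded values for the DMSO and CPX libraries. How the latter were rescaled is not stated in the sources used here. A fit of them to the authors' mean counts gave 1.966 reads per unit, and they were treated as a score with no unit of its own. The authors also deposited a table for each experiment with a mean signal (normalized counts averaged over 4 libraries), a log2 fold change and p-values, made with DESeq2 per the file headers; only the mean was used here. Reads were processed with cutadapt, STAR, HTSeq and DESeq, per the submitters' processing notes.

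After a constant line (23487630 in every library, left out), the gene labels of that table sit 1 line off. Each of the 14805 lines reaching 10 in a library was matched to the gene whose mean in the authors' tables it reproduced: 7440 lines kept their own label, 7349 took that of the preceding gene and 16 another gene's, and in 350 the mean was shared and the neighbour decided. The tolerances were 1e-07 of the mean in the knockdown table and 1.2 units plus 1e-04 of the mean in the chelation table, the last set after high genes were seen to be missed.

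Values were scaled to CPM and by median ratios within each experiment, and log2(value + 0.5) was fitted in limma 3.58.1 (R 4.3.3) with a variance trend, 4 group means in 1 fit of all 8 libraries and Benjamini-Hochberg adjustment over 10430 genes. No count model was run over all libraries, since the rescaled columns are no longer counts. A fold on this scale understates the change of low genes. Alternatives covered scaling (also with TMM factors of edgeR 4.0.16), pseudocount, filter, variance model, the replicate block, gene length and GC content (values for 98.8% of genes), and each library left out. The fit was tested on simulated data.

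Named genes were 16 listed genes, the largest differences overall (10 in each direction), of opposite sign (8) and of unequal size (4), the 5 smallest per direction among genes moved at least 2-fold alike, the 6 per direction called for 1 perturbation alone with the other effect under 0.25, and up to 4 per gene list by the p of the difference; all but the first and last needed 5 CPM. The contrast, the members and the lists were chosen with earlier results of these data known. Promoters came from RefSeq (GRCm38.p6), and coordinates of the authors' build were not used. Some named genes are not reported here.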

Additional observations from a re-analysis of the deposited data

How the results depend on the processing

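Of 200 named genes called for the difference, 188 kept direction and call under every one of the 20 alternatives in which they were tested (173 of them tested under all 20), and 12 lost the call under at least 1 (Pcbp1, Pcbp2, Ms4a6b, Isg15, Oasl1, Pgk1, mt-Co1, mt-Nd5, Incenp, Cdk1, Ccnb2 and Hist1h2ag). Since most were named for the size or the p of the difference in the main fit, keeping the call was largely set by that choice. Counts of called differences stayed within 1.5 times of 5252, except that lower calls numbered 1675 with no median ratio scaling, which shifts all genes by 0.40. Knockdown calls numbered 6308 with 1 variance for each experiment and with each experiment fitted by itself, and 1536 with length and GC content taken out. Under these 3 alternatives genes of opposite sign numbered 1471, 1314 and 577, and unequal genes of the same sign 628, 604 and 126. Same-direction genes without a called difference numbered 312 with length and GC content taken out. When a library was left out, knockdown calls ranged from 165 to 4965, genes of opposite sign from 64 to 1839, unequal genes from 7 to 841 and same-direction genes from 29 to 945. The cause was not tested. Depth and the number of libraries, 2 a group, both limit precision, and their shares were not tested.

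Replicate numbers were not taken as pairs, there being only 2 in each experiment; same-numbered libraries deviated together with a correlation of 0.307 in the knockdown and 0.0923 in the chelation experiment. With the replicate block 2695 differences were called higher and 2499 lower, and 770 genes had opposite signs. The differences of Csf2 (1.68, limma, adjusted p = 0.0371), Ifng (1.47, 0.0428) and Bnip3 (-3.25, 0.00271) were called under it. Of the coinhibitory and costimulatory receptors 6 were then higher and 4 lower, of the genes of Th2, Th17 and regulatory T cells 5 were higher, of the T cell cytokines and of the Th1 regulators 2 each were lower, and of the cytosolic ribosomal proteins 1 was higher.

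Differences that were not called changed sign in several genes, and the cause was not tested. With 1 library left out the range was -0.10 to 3.51 for Csf2, -0.56 to 0.58 for Tbx21, -1.95 to 0.34 for Il4, -0.10 to 0.60 for Tfrc, -1.44 to 0.45 for Slc2a1 and -0.27 to 1.28 for Egln3. Tbx21 was also at 0.40 with no median ratio scaling, 0.02 with TMM scaling and 0.20 with no filter. The called difference of mt-Co1 was 0.19 with quantile normalization, not called. The genes of like effects, with differences near 0, crossed it in both directions. With 1 library left out Zc3hav1l ranged from -0.23 to 0.21, Dsp from -0.34 to 0.31, Hk1 from -0.20 to 0.28, Mafg from -0.25 to 0.22, Chmp1b from -0.14 to 0.11, Cmpk1 from -0.17 to 0.15, Zfp955a from -0.30 to 0.26, 1810035L17Rik from -0.02 to 0.14, Fam72a from -0.37 to 0.27 and Dhrs11 from -0.28 to 0.33. With no median ratio scaling Dsp and Chmp1b were at 0.41, Cmpk1 at 0.42, Zfp955a at 0.38 and Fam72a at 0.37. With TMM scaling Dsp, Cmpk1 and Zfp955a were at 0.04, Chmp1b at 0.03 and Fam72a at 0.01. With quantile normalization Zc3hav1l was at -0.11, 1810035L17Rik at -0.14 and Zfp955a at 0.01. With a pseudocount of 0.1 Dsp was at 0.01, Cmpk1 at 0.00 and Zfp955a at 0.05, and with 2 Zc3hav1l was at -0.09, Hk1 at -0.11, and Mafg and 1810035L17Rik at -0.02. With a filter of 5 CPM Zc3hav1l was at -0.12, Hk1 and Mafg at -0.13, 1810035L17Rik at -0.10 and Dhrs11 at -0.08. With no filter Dsp and Chmp1b were at 0.21, Cmpk1 at 0.22, Zfp955a at 0.20 and Fam72a at 0.18. With length and GC content taken out Zc3hav1l was at -0.05, Hk1 and Mafg at -0.31, Chmp1b at 0.34, Cmpk1 at 0.32, Zfp955a at 0.26 and Fam72a at 0.18.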

Other observations

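Interferon-stimulated genes, the antiviral set that STAT proteins drive, were lower after the knockdown than with CPX in 8 of 25 tested members and higher in 2 (median difference -1.06, from medians of -0.41 and 0.67). The lower calls numbered 4 without either scrambled library or Pcbp1 hairpin replicate 1, 5 without Pcbp1 hairpin replicate 2 or DMSO replicate 1, 16 without CPX replicate 2 and 4 with no median ratio scaling. Zbp1, a sensor of Z-form nucleic acids, stood at 7.18 and 7.89 against 3.74 and 3.30 CPM in the knockdown and at 10.2 and 13.2 against 43.3 and 35.1 with CPX. It fell and rose without overlap (difference -2.71, SE 0.30, limma, adjusted p = 0.000487). Gbp2, a guanylate-binding protein, stood at 134 and 135 against 52.7 and 45.4 and at 61.0 and 146 against 234 and 899, where CPX replicate 2 was far above the rest (difference -3.73). Isg15, a ubiquitin-like protein, differed by -1.73 and Oasl1, an OAS-like protein, by -1.57, both called for CPX alone. The difference of Oasl1 was not called without scrambled replicate 2, Pcbp1 hairpin replicate 1 or DMSO replicate 1.

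Proteasome subunits were called in both directions, 7 of 35 higher and 8 lower (median -0.14), against 26.3% and 24.1% of all genes. The lower calls ranged from 5 without scrambled replicate 1 to 16 without CPX replicate 1 and were 15 with a filter of 5 CPM and 3 with no median ratio scaling, while 4 were higher without scrambled replicate 2. Psmc5, an ATPase of the base, stood at 42.6 and 44.1 against 107 and 122 and at 213 and 184 against 156 and 128. It was called with opposite signs (difference 1.87, SE 0.22, limma, adjusted p = 0.0006), as were Psme3, a proteasome activator, and Psmd7, of the lid (differences 1.64 and 1.62). Psmc6, another ATPase of the base, fell after the knockdown alone, from 452 and 448 to 198 and 203 CPM.

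Of 18 genes of Th2, Th17 and regulatory T cells 3 were higher and 2 lower (median -0.10). Rora, a nuclear receptor of Th17 cells, stood at 23.3 and 26.2 against 33.6 and 32.8 and at 7.80 and 8.68 against 102 and 124. The rise with CPX was called alone (difference -3.27, SE 0.24, limma, adjusted p = 0.000138). Itgae, the integrin chain CD103, differed by -3.60, and Il1r1, a receptor of IL-1, by 3.5. Counts moved to 5 higher without DMSO replicate 2 or with no median ratio scaling, 6 higher without CPX replicate 1, 4 lower without DMSO replicate 2, 5 lower without CPX replicate 2 and 1 lower with a filter of 5 CPM.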
